A study of Mus musculus with 6 samples.

Results

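RNA of 8 glycolysis enzymes and 2 glucose transporters was followed through the immune cells of mouse livers. The 10 genes were chosen by symbol (Slc2a1, Slc2a3, Hk2, Pfkp, Aldoa, Gapdh, Pgk1, Eno1, Pkm and Ldha) from 32286 gene features, and all 10 were found. The study asked how bile acid synthesis bears on T cell responses in liver cancer, and compared 3 groups at day 30 after infection: mock infection, AAV-sgSCR and AAV-sgBaat. AAV is an adeno-associated virus that carries a guide RNA, sgSCR is the guide of the group titled control, and Baat encodes the enzyme that conjugates bile acids to amino acids. Each group is 1 mRNA library from a pool of 3 tumor samples, with antibody tags read in the same cells. A sample title calls the mock liver native while the design text counts it among tumor-bearing livers, so its tumor status is uncertain. The labels give no strain, sex, age or promoter for the AAV cargo. Livers were digested with collagenase, and CD3+ T cells and remaining CD45hi cells were collected in separate gates before the single-cell run, so shares of cell types are partly set by the sort. With 1 library a group there are no replicates and no test, and group and library cannot be told apart.

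The matrices held 32005400 to 62570529 gene UMIs (unique molecular identifiers, counts of single RNA molecules). Barcodes with at least 500 genes, at least 1000 gene UMIs and at most 10% mitochondrial UMIs passed, which left 6068 mock, 7332 AAV-sgSCR and 7094 AAV-sgBaat barcodes at medians of 4164, 5911 and 3811.5 UMIs. Each barcode was put in a lineage by UMIs of marker genes, and the class names below stand for cells that are alike in those markers. The T cell receptor gene Trac, which no gate used, stood at 375 to 966 CPM in CD8 classes against 2.52 to 5.99 CPM in mature B cells. CPM are UMIs of a gene per 1000000 gene UMIs of a class. Barcodes with T, B or other lineage markers together made up 5.93% of mock, 16.8% of AAV-sgSCR and 24.6% of AAV-sgBaat barcodes and were set aside, except that those pairing macrophage with T cell transcripts are given as a class of their own. Baat, a hepatocyte gene, had 5, 15 and 1 UMIs among the passing barcodes, too few to check the edit in sorted immune cells. Between 10 and 16 barcode sequences were shared by each pair of libraries.

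Glycolysis turns glucose into pyruvate and lactate in the cytosol. Glucose enters through carriers of the GLUT family, is trapped by hexokinase, is committed at phosphofructokinase, split by aldolase, and then passes through GAPDH, phosphoglycerate kinase, enolase and pyruvate kinase. Lactate dehydrogenase restores NAD+ and is the step by which activated and dividing T cells, neutrophils and inflammatory myeloid cells run glycolysis fast even with oxygen present. Many genes of the pathway are targets of the hypoxia-inducible factors and of Myc.

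Promoter sequences from RefSeq were found for 9 of the 10 genes, all but Slc2a3. Each window covers the 250 bases before the outermost start that the promoter table gives, on assembly GRCm38.p6, the build called mm10. For Ldha, Gapdh, Aldoa and Pfkp the annotated gene begins further upstream, so their windows lie inside the gene. The letters searched were ACGTG and its reverse complement CACGT, the core bound by hypoxia-inducible factors, on both strands. The palindrome CACGTG holds 1 match on each strand, so it counts for both searches. Matches lay in 4 of 9 promoters (Slc2a1, Hk2, Pgk1 and Ldha), against 16.5% of 27025 promoters of the same length. The windows of Hk2, Pgk1 and Ldha are shown, with matches in capitals, because results below turn on these genes. That of Gapdh is shown because its levels ran closest to those of Pgk1 while its window has no match. A match is a description of letters and not a site of binding.
Hk2 (chr6:82774455-82774704, minus strand): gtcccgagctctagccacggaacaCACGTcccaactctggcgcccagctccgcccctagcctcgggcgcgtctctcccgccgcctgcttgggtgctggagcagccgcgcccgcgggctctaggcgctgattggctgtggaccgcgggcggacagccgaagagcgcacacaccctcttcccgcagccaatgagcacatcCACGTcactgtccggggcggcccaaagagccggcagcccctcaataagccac
Pgk1 (chrX:106186850-106187099, plus strand): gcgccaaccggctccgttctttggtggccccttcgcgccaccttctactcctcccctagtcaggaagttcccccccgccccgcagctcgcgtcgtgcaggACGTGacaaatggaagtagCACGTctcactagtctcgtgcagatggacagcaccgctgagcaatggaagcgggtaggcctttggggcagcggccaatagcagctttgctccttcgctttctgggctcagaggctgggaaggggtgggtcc
Ldha (chr7:46845554-46845803, plus strand): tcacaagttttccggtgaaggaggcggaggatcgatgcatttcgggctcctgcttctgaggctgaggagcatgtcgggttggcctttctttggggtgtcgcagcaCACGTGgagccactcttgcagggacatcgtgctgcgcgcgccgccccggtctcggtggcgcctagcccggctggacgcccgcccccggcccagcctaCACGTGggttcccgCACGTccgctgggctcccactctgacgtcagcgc
Gapdh (chr6:125165774-125166023, minus strand): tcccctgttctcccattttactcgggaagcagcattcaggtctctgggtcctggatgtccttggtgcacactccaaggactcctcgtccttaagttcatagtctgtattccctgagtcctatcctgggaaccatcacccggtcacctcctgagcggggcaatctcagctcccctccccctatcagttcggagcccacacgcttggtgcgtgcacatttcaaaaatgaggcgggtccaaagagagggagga
The Hk2 matches start 226 and 52 bases before the listed start. Those of Pgk1 start 150 and 131 bases before it. The 5 in Ldha start 145, 144, 48, 47 and 34 bases before the listed start of its window, which is downstream of where the annotated gene begins. GC content of the 4 windows was 69.6% for Hk2, 62.8% for Pgk1, 67.2% for Ldha and 55.6% for Gapdh.

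Cell classes with at least 50 cells in a library gave 44 class and library pairs. The genes fell into kinds that were spread very unequally over them. Within AAV-sgSCR, where 20 classes could be read, the highest class exceeded the lowest 188-fold for Slc2a3, 30.0-fold for Slc2a1 and 27.9-fold for Hk2. The same span was 11.6-fold for Ldha, 8.29-fold for Eno1, 5.41-fold for Pfkp, 4.95-fold for Pkm, 4.53-fold for Aldoa, 4.17-fold for Gapdh and 3.56-fold for Pgk1. The transporters and Hk2 thus varied most from class to class, and the other 7 genes varied less.

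**Figure D1:**
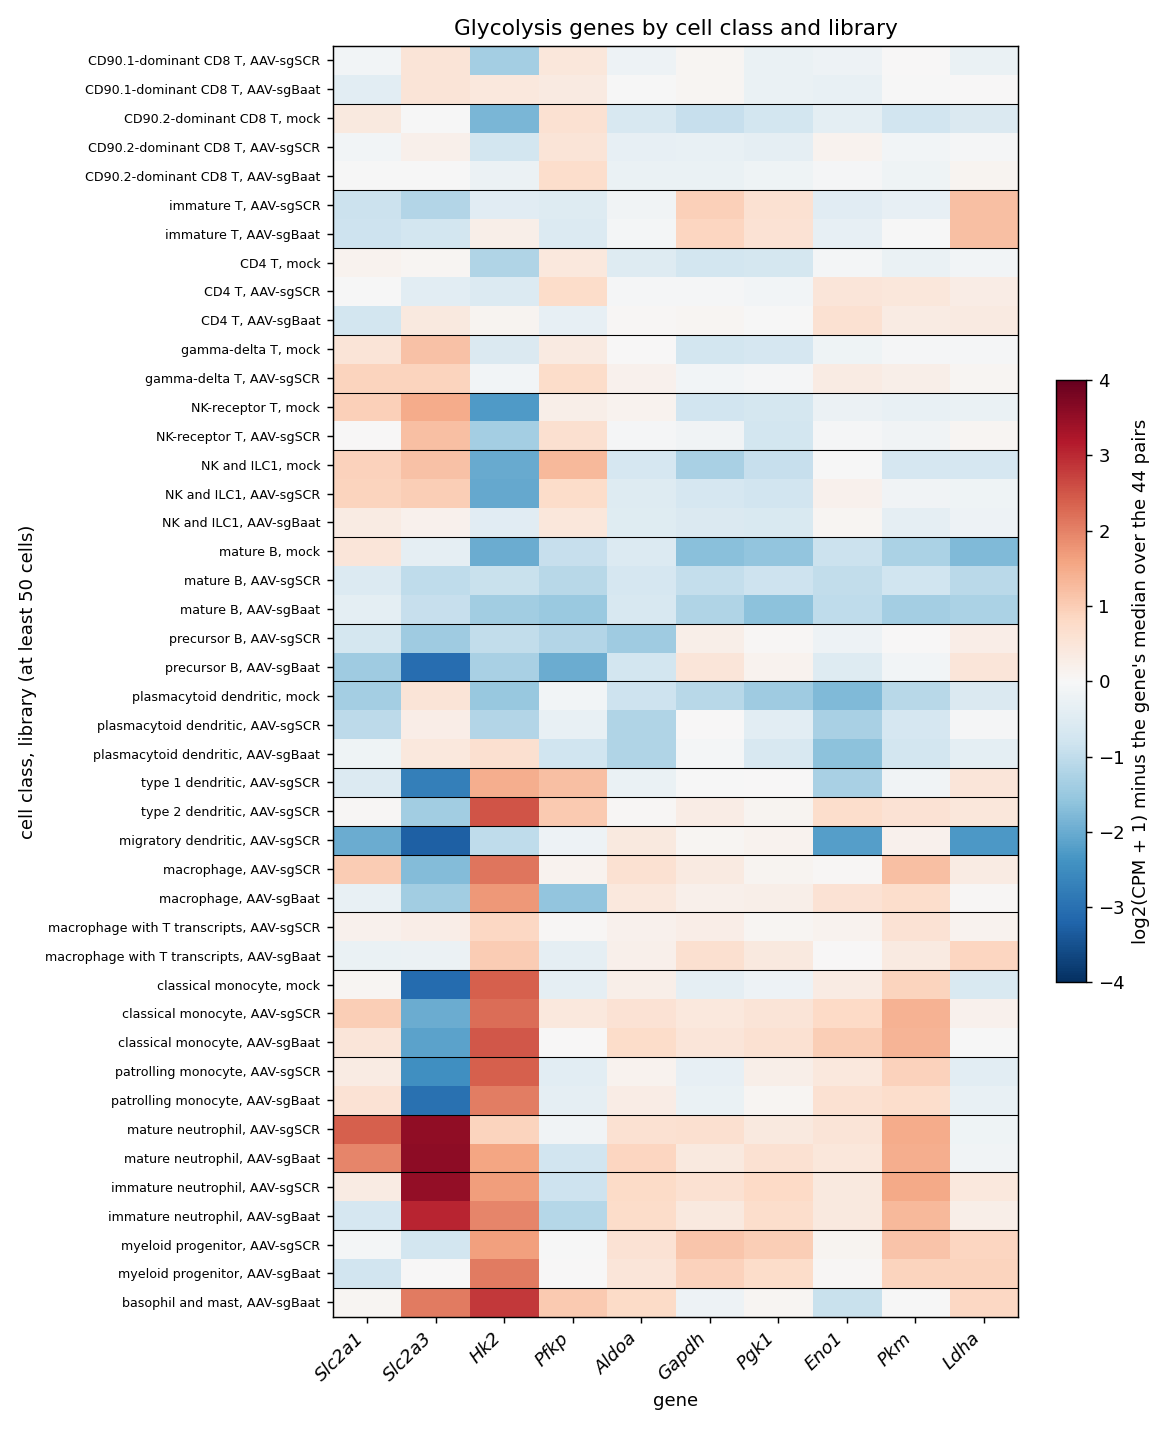
Colour gives log2(CPM + 1) of each gene (columns) in each cell class and library with at least 50 cells (rows), minus that gene's median over the 44 pairs, on a scale from -4 to 4. Slc2a3 is high in neutrophils (265 and 269 CPM in AAV-sgSCR), while Gapdh varies far less across rows. Hk2 is high in monocytes, type 1 and type 2 dendritic cells and macrophages (116 CPM in AAV-sgSCR classical monocytes). In plasmacytoid dendritic cells of AAV-sgSCR it is 10.1 CPM.

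Slc2a3 encodes GLUT3, a high-affinity glucose carrier. Its RNA was concentrated in neutrophils. Mature neutrophils held 269 CPM in AAV-sgSCR and 274 in AAV-sgBaat, and immature neutrophils held 265 and 191. Basophils and mast cells followed with 97.7 CPM in AAV-sgBaat, the only library with enough of them. In AAV-sgSCR the 2 neutrophil classes did not differ beyond their counting intervals, and the interval of immature neutrophils lay above that of the next class, NK-receptor T cells at 52.1 CPM. CD90.1-dominant CD8 cells had 32.3 CPM and NK and ILC1 cells 44.6, but mature B cells 10.5 and immature T cells 9.20. Classical monocytes had 4.85 CPM and migratory dendritic cells 1.43.

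Slc2a1, the gene of the widely used carrier GLUT1, was sparse. It was highest in mature neutrophils, at 64.2 CPM in AAV-sgSCR and 47.5 in AAV-sgBaat, against 14.5 and 6.79 CPM in immature neutrophils. In AAV-sgSCR the mature neutrophil interval lay above that of every other class, and no neighbouring classes below it separated. NK cells and ILC1 had 22.7 CPM in mock, 21.9 in AAV-sgSCR and 14.5 in AAV-sgBaat. A Slc2a1 UMI was held by 5.54% of CD90.1-dominant CD8 cells of AAV-sgSCR at a median of 5003.5 UMIs per cell and by 2.38% of mature B cells at 2808.5. With each cell thinned to 1000 UMIs, which left no cell out, the shares were 0.606% (0.244% to 1.24%) and 1.02% (0.375% to 2.21%), with exact binomial intervals that overlap.

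Hk2 encodes hexokinase 2, the mitochondria-bound enzyme that phosphorylates glucose. In AAV-sgSCR it stood at 141 CPM in type 2 dendritic cells, 129 in patrolling monocytes, 116 in classical monocytes and 108 in macrophages. Immature neutrophils had 78.5 CPM, type 1 dendritic cells 67.6 and mature neutrophils 45.4. No neighbours in this order separated beyond their counting intervals, yet the ends did, since NK cells and ILC1 had 5.05 CPM and CD90.1-dominant CD8 cells 8.80. Classical monocytes gave near equal levels in the 3 libraries, at 131 CPM in mock, 116 in AAV-sgSCR and 138 in AAV-sgBaat. The highest level of any class was 175 CPM, in basophils and mast cells of AAV-sgBaat. Slc2a3 and Hk2 therefore marked different myeloid cells: monocytes were high in Hk2 and low in Slc2a3, neutrophils were high in Slc2a3 and held Hk2 as well.

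**Figure D2:**
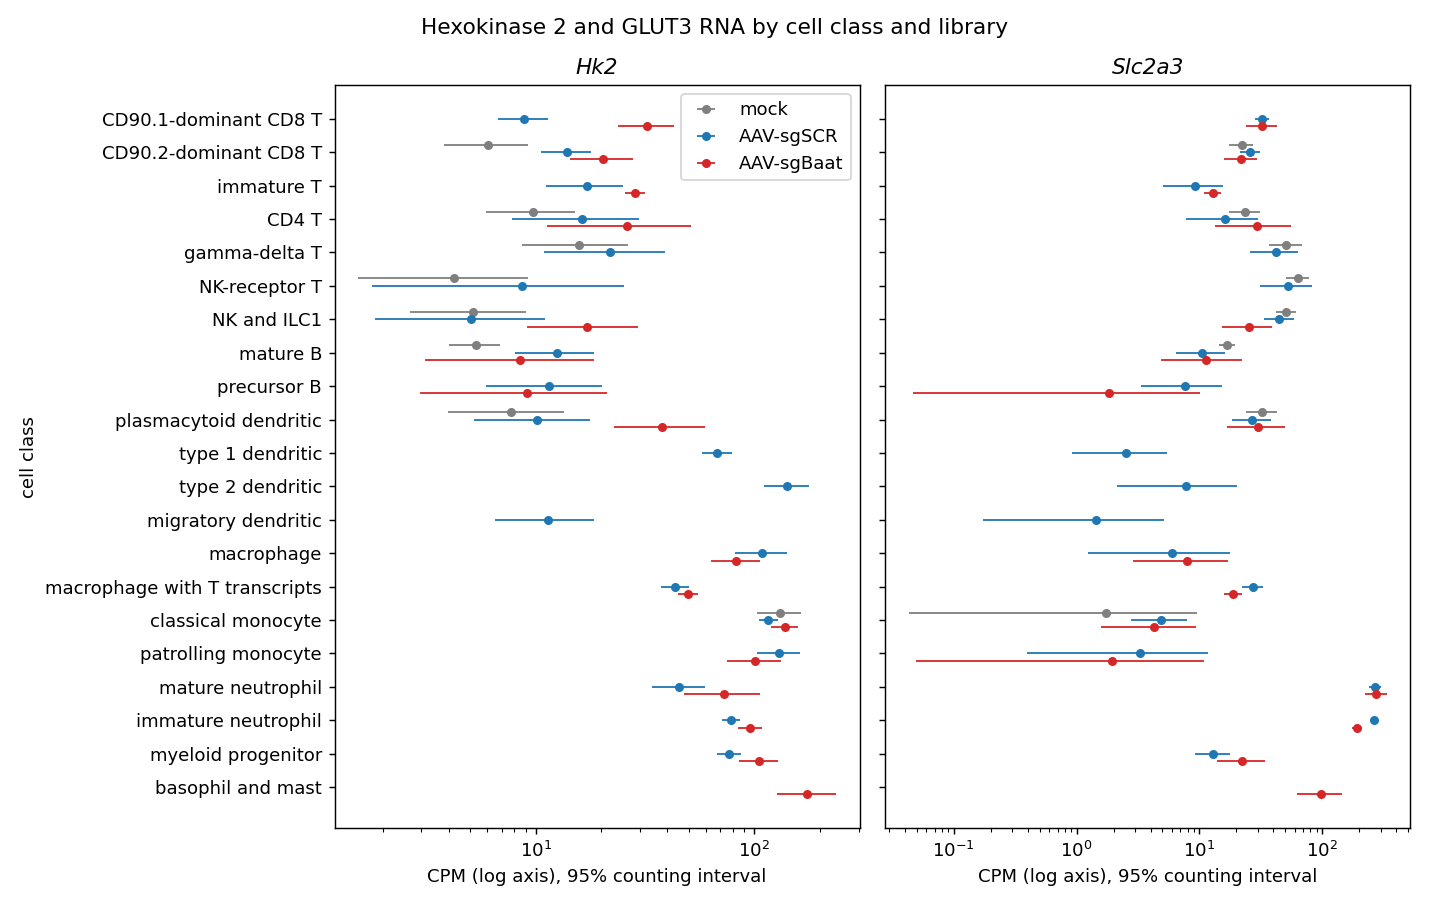
CPM on a log axis of Hk2 (left) and Slc2a3 (right) for each cell class (rows), with a point for each library and its 95% exact Poisson interval, which covers counting error only. Hk2 exceeds 100 CPM in classical monocytes of all 3 libraries, while Slc2a3 stays at or below 4.85 CPM there and reaches 274 CPM in mature neutrophils.

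Pfkp encodes the platelet-type subunit of phosphofructokinase, the committing step. Its order did not follow the division into lymphoid and myeloid cells. Type 1 dendritic cells had 125 CPM in AAV-sgSCR, NK cells and ILC1 133 in mock, 89.1 in AAV-sgSCR and 72.7 in AAV-sgBaat. CD90.1-dominant CD8 cells had 72.6 and 68.0 CPM, and CD90.2-dominant CD8 cells 82.1, 76.6 and 87.5 across mock, AAV-sgSCR and AAV-sgBaat. Mature B cells were low at 27.3, 24.0 and 18.4, and mature neutrophils had 47.9 and 30.7. Precursor B cells were lowest in AAV-sgSCR at 23.0, immature T cells had 36.8 and plasmacytoid dendritic cells 43.1, while classical monocytes at 72.1 were level with the CD90.1-dominant CD8 cells. The liver-type gene Pfkl was counted as a separate feature.

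Aldoa (aldolase A) and Pkm (pyruvate kinase M) were myeloid-leaning. Aldoa reached 398 and 469 CPM in mature neutrophils of AAV-sgSCR and AAV-sgBaat and 163 and 164 in mature B cells. Pkm reached 637 and 629 CPM in mature neutrophils and 131 and 87.8 in mature B cells. Classical monocytes held 420 CPM of Pkm in mock, 600 in AAV-sgSCR and 587 in AAV-sgBaat. The 6 leading classes of Pkm in AAV-sgSCR were all myeloid, and the interval of the lowest of them, patrolling monocytes at 437 CPM, did not overlap that of the next class.

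Gapdh (glyceraldehyde-3-phosphate dehydrogenase), Pgk1 (phosphoglycerate kinase 1) and Ldha (lactate dehydrogenase A, which makes lactate) peaked in precursors. Myeloid progenitors had 1958 and 1716 CPM of Gapdh in AAV-sgSCR and AAV-sgBaat, and immature T cells 1734 and 1643. Ldha was highest in immature T cells, at 578 and 587 CPM, with the AAV-sgSCR interval above that of myeloid progenitors at 459. Pgk1 was highest in myeloid progenitors, at 304 and 258 CPM. Mature B cells had the lowest Gapdh of all classes in each library, at 282 CPM in mock, 470 in AAV-sgSCR and 391 in AAV-sgBaat. Eno1 (enolase 1) was highest in classical monocytes of AAV-sgSCR, at 290 CPM, and lowest in migratory dendritic cells, at 35.0. Migratory dendritic cells were also lowest in Ldha, at 49.9 CPM. Enolase has a near-identical copy, Eno1b, but it drew only 30, 83 and 50 UMIs in the 3 libraries, and a second feature called Aldoa drew 1.

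The first comparison set AAV-sgSCR against mock, in the 8 classes with enough cells in both libraries. Gapdh was higher in AAV-sgSCR in every one of them and Pgk1 in most. Of the transporters, Slc2a1 was above mock in 2 of 7 readable classes and Slc2a3 in 1 of 7, and neither had an interval above 0. RNA of neutrophils was also higher in AAV-sgSCR in the classes that are not neutrophils. S100a8 and S100a9 together stood at 3.04 CPM in mock and 349 in AAV-sgSCR in CD90.2-dominant CD8 cells, 6.43 and 388 in NK cells and ILC1, 6.82 and 467 in mature B cells, and 1.93 and 241 in plasmacytoid dendritic cells. In CD90.2-dominant CD8 cells without UMIs of Lyz2, S100a8, S100a9 or C1q the Gapdh ratio was 0.67 on the log2 scale. Only 88 of 736 AAV-sgSCR cells were left by that choice, against 517 of 550 mock cells, so the value describes a small part of the AAV-sgSCR class. In the other classes the part of neutrophil RNA in the Gapdh ratio was not tested. A ratio was called past the fold when it exceeded 1.5-fold and rested on at least 20 UMIs. Of 76 ratios with that many UMIs, 22 were past the fold higher and 3 lower, beside 14.3% of the ratios of all genes higher and 18.5% lower. The share of genes higher ranged from 9.06% to 19.8% over the classes.

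CD90.2-dominant CD8 T cells, whose tag is the form of Thy1 that predominated in mock, were the main T cell class of this comparison (550 mock and 736 AAV-sgSCR cells). Gapdh stood at 477 CPM in mock and 734 in AAV-sgSCR, a log2 ratio of 0.62 (95% counting interval 0.54 to 0.71). Pkm was 135 against 210 CPM, a log2 ratio of 0.64 (0.48 to 0.80). Hk2 was 6.08 against 13.9 CPM, from 22 and 61 UMIs, a log2 ratio of 1.19 (0.47 to 1.97). These 3 were past the fold, beside 13.5% of genes higher and 10.2% lower. Myeloid RNA was higher in the same AAV-sgSCR cells, Lyz2 at 125 CPM in mock and 534 in AAV-sgSCR. In cells without a UMI of Lyz2 or C1q the Hk2 ratio was 0.55 (-0.38 to 1.49), below the fold. Eno1 (0.56), Ldha (0.53), Pgk1 (0.39) and Aldoa (0.31) were also higher with intervals above 0, and Slc2a1 (-0.54), Slc2a3 (0.23) and Pfkp (-0.10) had intervals that spanned 0. The median over the 10 genes was 0.46, beside 0.02 over all genes tested. Cut to cells with at least 5 UMIs of Ccl5, Gzmk, Gzma, Gzmb and Nkg7, genes of antigen-experienced CD8 cells, the Gapdh ratio was 0.33 and that of Pkm 0.41, neither past the fold, which 10.4% of genes passed.

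Over the 8 classes Gapdh ranged from 0.62 to 1.12 on the log2 scale and was past the fold in 8. Plasmacytoid dendritic cells gave the largest value, 417 CPM in mock and 906 in AAV-sgSCR, where 17.5% of genes were past the fold higher. NK cells and ILC1 gave 368 and 568 CPM, mature B cells 282 and 470, and classical monocytes 700 and 1197. Pgk1 was past the fold in 5 of 8 classes, among them plasmacytoid dendritic cells (57.3 and 114 CPM) and mature B cells (50.8 and 85.4). Ldha was past it in mature B cells, 74.1 against 119 CPM, and in classical monocytes, 163 against 283. Aldoa and Eno1 were past it in none of the 8.

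More cells were cycling in AAV-sgSCR in the same classes, by at least 2 UMIs of 6 proliferation genes such as Mki67. In mature B cells the share was 0.518% in mock and 8.5% in AAV-sgSCR, in plasmacytoid dendritic cells 1.63% and 26.8%, and in CD90.2-dominant CD8 cells 5.64% and 10.3%. With cycling cells left out the Gapdh ratio was 0.50 in plasmacytoid dendritic cells, 0.43 in mature B cells, 0.43 in NK cells and ILC1, 0.43 in gamma-delta T cells and 0.29 in NK-receptor T cells. All 5 are below the fold. Without cycling cells it was 0.66 in CD90.2-dominant CD8 cells, 0.68 in CD4 T cells and 0.84 in classical monocytes, where it stayed past the fold. With each cell thinned to 1000 UMIs it was below the fold in 5 of the 8 classes, at 0.16 in NK cells and ILC1 and 0.23 in mature B cells. Pgk1 in plasmacytoid dendritic cells was 0.19 without cycling cells, and -0.13 with each cell thinned to 1000 UMIs.

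Mature B cells differed in more members than the other classes, with 4 past the fold higher (19.8% of genes were) and 2 lower (15.5%). Hk2 was 5.32 CPM in mock and 12.5 in AAV-sgSCR, a log2 ratio of 1.23 (0.49 to 1.93). Slc2a1 was 16.3 against 7.49 CPM, a log2 ratio of -1.12 (-1.99 to -0.36), and Slc2a3 16.9 against 10.5, a log2 ratio of -0.69 (-1.42 to -0.03). Both transporters were thus lower where Hk2 was higher. Lyz2, a myeloid lysozyme gene, was 28.5 CPM in these mock B cells and 660 in those of AAV-sgSCR, and its part in the Hk2 values was not tested there. Classical monocytes had 5 members past the fold higher, beside 15.7% of genes. Their Slc2a1 was 12 against 23.9 CPM but rested on 7 mock UMIs, with an interval from -0.12 to 2.35, and their Pfkp was 41.3 against 72.1 CPM, a log2 ratio of 0.80 (0.20 to 1.48).

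**Figure D3:**
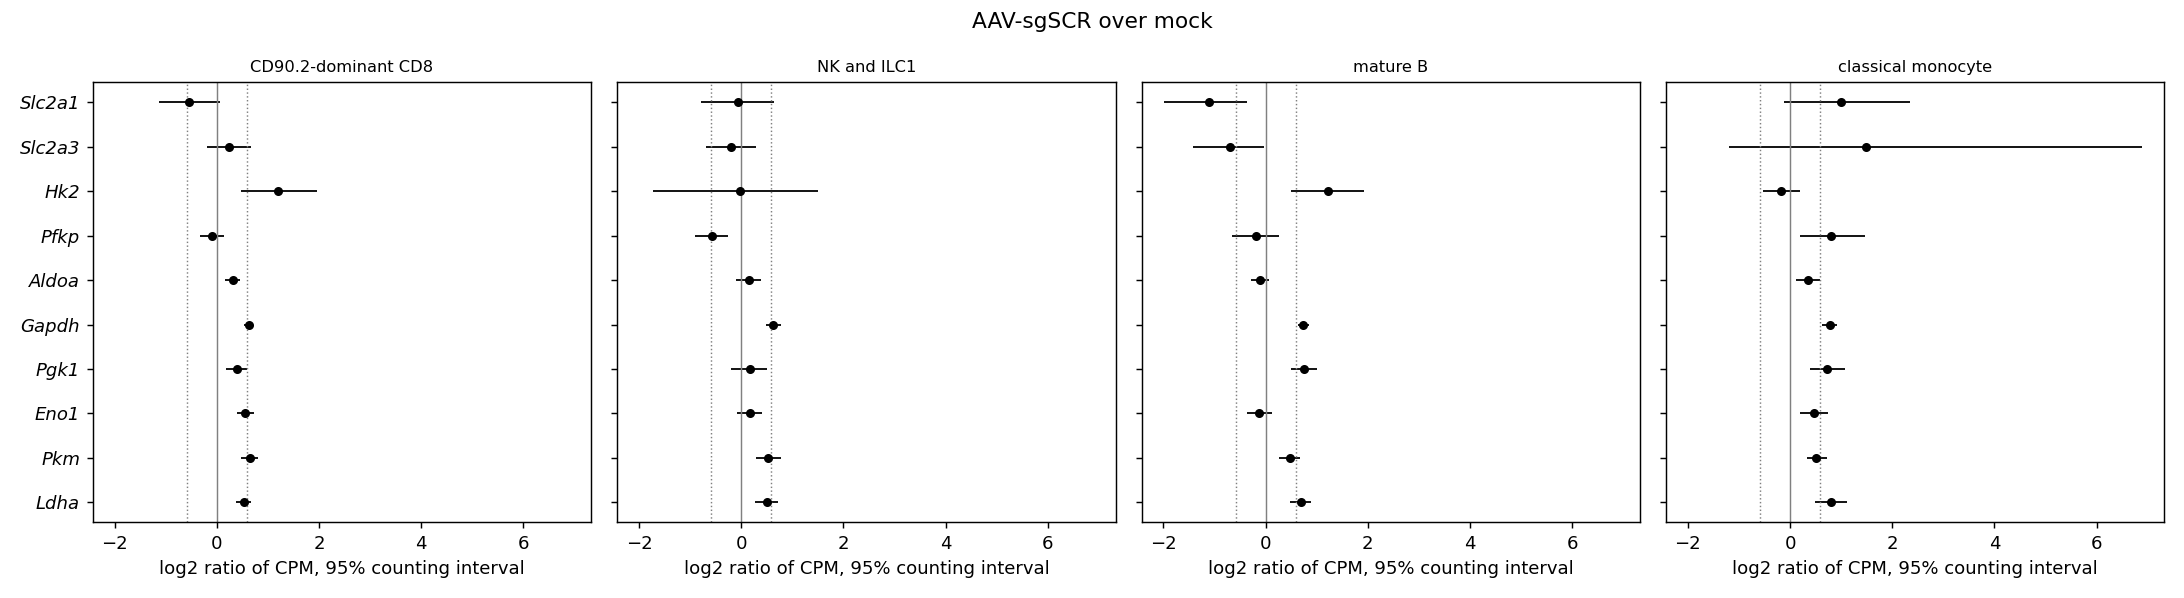
Log2 ratio of CPM, AAV-sgSCR over mock, for each gene (rows) in 4 cell classes (panels), with 95% exact counting intervals and dotted lines at 1.5-fold. Gapdh lies past the line in all 4 panels, at 0.62, 0.63, 0.73 and 0.77, while Aldoa and Eno1 lie inside it in all 4.

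AAV-sgBaat was set against mock in 6 classes. This comparison and the one before share the mock library, so their likeness is not a second observation. Of 58 ratios, 20 were past the fold higher and 7 lower, beside 13.9% of the ratios of all genes higher and 22% lower. In CD90.2-dominant CD8 cells 5 members were past the fold higher, beside 12.7% of genes. Their levels in AAV-sgBaat were 20.3 CPM for Hk2, 745 for Gapdh, 138 for Pgk1, 203 for Pkm and 271 for Ldha, and the log2 ratios over mock were 1.74, 0.64, 0.59, 0.59 and 0.69. The Hk2 ratio was 0.93 (-0.14 to 1.97) in cells without a UMI of Lyz2 or C1q, and -0.39 when T cells with UMIs of Lyz2, S100a8, S100a9 or C1q were left out. Gapdh was past the fold in 5 of 6 classes and in mature B cells had a log2 ratio of 0.47. Hk2 was past it in 5 of 6, led by plasmacytoid dendritic cells at 7.72 CPM in mock and 38.0 in AAV-sgBaat (12 and 19 UMIs, log2 ratio 2.30, interval 1.18 to 3.48). In NK cells and ILC1, Slc2a3 was lower, 51.0 against 25.1 CPM (log2 ratio -1.02, interval -1.81 to -0.32), as was Pfkp, 133 against 72.7 CPM (-0.87, interval -1.31 to -0.45). In that class 3 of 10 members were past the fold lower and 2 higher, beside 27.5% and 8.23% of genes. The count lower is thus near the share of all genes, whose median log2 ratio was -0.23.

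AAV-sgBaat against AAV-sgSCR is the comparison of the guide against Baat with its control guide, and 15 classes could be read. Most members differed little, and Hk2 was the exception in CD90.1-dominant CD8 cells. Over the 15 classes 7 of 138 ratios were past the fold higher and 9 lower, beside 8.88% of the ratios of all genes higher and 14% lower. As a set the members were thus no more often past the fold than other genes.

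CD90.1-dominant CD8 T cells carry the tag that was rare in mock, with 12 such cells there, 1156 in AAV-sgSCR and 328 in AAV-sgBaat. Hk2 stood at 8.80 CPM (6.72 to 11.3) in AAV-sgSCR and 32.3 CPM (23.7 to 42.9) in AAV-sgBaat, from 60 and 47 UMIs, and the intervals did not overlap. The log2 ratio was 1.87 (1.29 to 2.45), or 3.67-fold, and it was the 1 member past the fold, beside 11.6% of genes higher and 12.3% lower. Ldha was 210 against 257 CPM (0.29, interval 0.12 to 0.46) and Aldoa 223 against 254 (0.19, interval 0.02 to 0.35), small differences with intervals above 0. Gapdh was 944 against 955 CPM, Pgk1 127 against 128, Eno1 143 against 136, Pkm 232 against 228 and Slc2a3 32.3 in both. Their log2 ratios lay between -0.08 and 0.02, and the Gapdh interval ran from -0.07 to 0.10. Slc2a1 rested on 12 AAV-sgBaat UMIs and gave -0.36 (-1.38 to 0.53), too wide to read. The median over the 10 genes was 0.01, as over all genes tested at 0.00.

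Myeloid RNA was also higher in these AAV-sgBaat cells. Lyz2 stood at 530 CPM in AAV-sgSCR and 1540 in AAV-sgBaat, and the 3 C1q genes together at 16.7 and 61.8, while classical monocytes held 17195 and 18529 CPM of Lyz2. Among the 786 AAV-sgSCR and 169 AAV-sgBaat cells without a UMI of Lyz2 or C1q, Hk2 was 3.36 against 14.4 CPM, a log2 ratio of 2.10 (0.77 to 3.38) from 14 and 10 UMIs, the 10 lying in 7 cells. Among cells with such a UMI it was 17.4 against 48.5 CPM, a log2 ratio of 1.48 (0.81 to 2.14). Within each library Hk2 was thus higher in the cells that held myeloid UMIs, and the difference between libraries was present in both sets. With mixed-lineage barcodes kept the log2 ratio was 0.75, and with each cell thinned to 1000 UMIs it was 3.04. After thinning, 6 AAV-sgSCR and 12 AAV-sgBaat cells held a Hk2 UMI, so the value of 3.04 rests on few counts. Heat shock RNA moved with the library too, Hspa1a and Hspa1b together standing at 16.1 CPM in AAV-sgSCR and 172 in AAV-sgBaat, and its part in the Hk2 value was not tested.

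CD90.2-dominant CD8 cells had no member past the fold between the 2 guides, beside 5.44% of genes higher and 9.5% lower. Hk2 was 13.9 CPM in AAV-sgSCR and 20.3 in AAV-sgBaat, a log2 ratio of 0.54 (-0.08 to 1.15). Eno1 was 184 against 160 CPM (-0.20, interval -0.40 to -0.01), the 1 member with an interval below 0. Gapdh was 734 against 745 CPM and Pfkp 76.6 against 87.5. In cells without Lyz2 or C1q UMIs, Hk2 was 5.84 CPM in mock, 8.56 in AAV-sgSCR and 11.1 in AAV-sgBaat, and the 3 intervals overlapped. Lyz2 in this class was 125, 534 and 507 CPM.

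**Figure D4:**
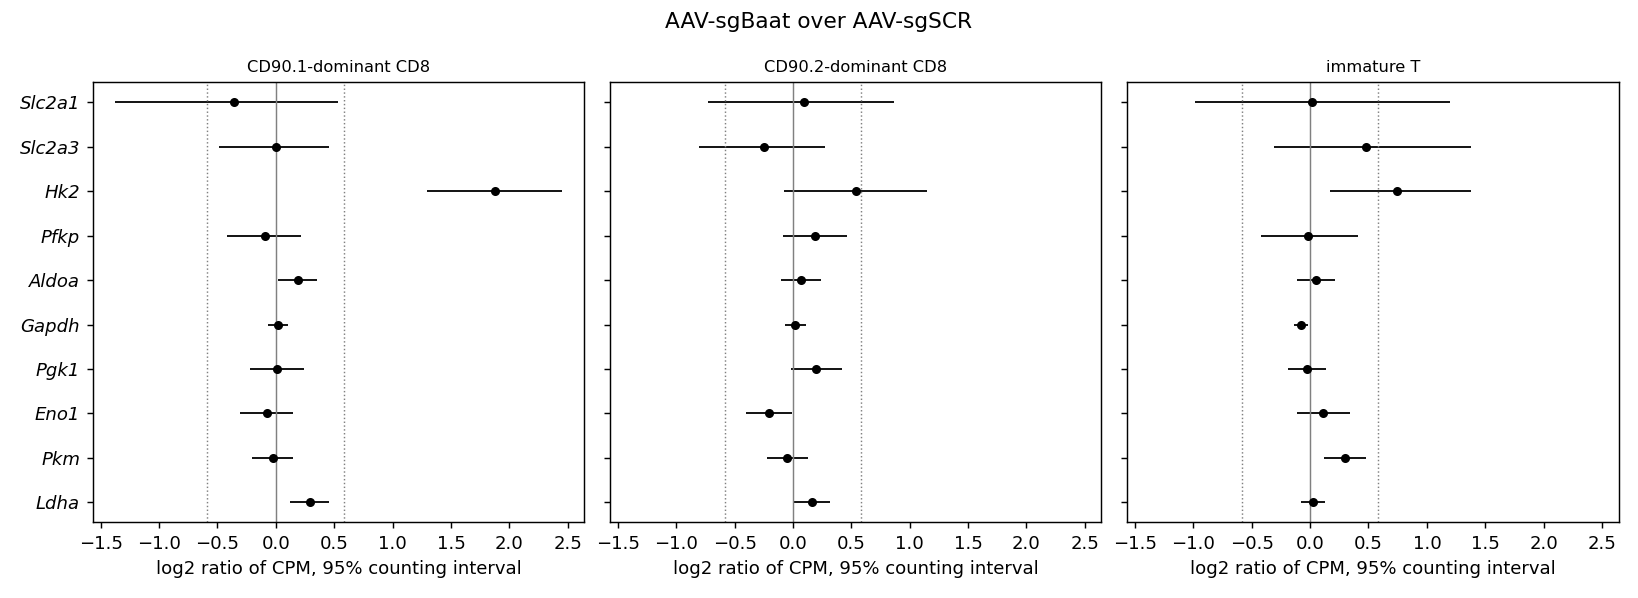
Log2 ratio of CPM, AAV-sgBaat over AAV-sgSCR, for each gene (rows) in CD90.1-dominant CD8, CD90.2-dominant CD8 and immature T cells (panels), with 95% exact counting intervals and dotted lines at 1.5-fold. Hk2 lies past the line at 1.87 in CD90.1-dominant CD8 and 0.74 in immature T cells and inside it at 0.54 in CD90.2-dominant CD8 cells, and the other 9 genes lie inside it in all 3 panels.

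Over all classes Hk2 was past the fold higher in AAV-sgBaat in 4 of the 12 that held enough UMIs, and lower in none. Of the ratios of all genes over the 15 classes, 8.88% were higher. Beside the CD90.1-dominant cells, immature T cells had 17.1 and 28.6 CPM (log2 ratio 0.74, interval 0.17 to 1.38, beside 11.4% of genes higher), but -0.24 with each cell thinned to 1000 UMIs. After thinning, 4 of 99 AAV-sgSCR and 36 of 1142 AAV-sgBaat immature T cells held a Hk2 UMI. Plasmacytoid dendritic cells had 10.1 and 38.0 CPM from 12 and 19 UMIs (1.91, interval 0.79 to 3.08, beside 7.17% higher). Mature neutrophils had 45.4 and 72.6 CPM, with an interval from -0.06 to 1.38, beside 7.35% of genes higher. In NK cells and ILC1 the sum was 19 UMIs, 1 short of the minimum, at 5.05 and 17.2 CPM. Plasmacytoid dendritic cells had little Lyz2, 30.4 and 32.0 CPM in the same libraries, and Hk2 in those without a Lyz2 or C1q UMI was 13.8 against 44.4 CPM, a log2 ratio of 1.68. In immature T cells without such a UMI it was 8.54 against 19.1, a log2 ratio of 1.16.

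Pfkp and Slc2a1 went the other way. Pfkp was past the fold lower in 4 of 15 classes and higher in none, beside 14% of the ratios of all genes lower over those classes. Macrophages had 58.2 CPM in AAV-sgSCR and 17.0 in AAV-sgBaat, from 29 and 13 UMIs, a log2 ratio of -1.77 (-2.84 to -0.78), beside 14.9% of genes lower. CD4 T cells gave -1.07, beside 13.1% of genes lower. Precursor B cells gave -0.85 with an interval that spanned 0, beside 15.9% lower. The remaining class was mature neutrophils, where 31.4% of genes were past the fold lower and the median over all genes was -0.29. Slc2a1 was past the fold lower in 3 of 10 classes and higher in none, but its interval lay below 0 in only 1 of the 10. That class was immature neutrophils, with 14.5 and 6.79 CPM (-1.10, interval -1.95 to -0.33, beside 13.1% lower). Slc2a3 in the same cells was 265 and 191 CPM, a log2 ratio of -0.47 (-0.62 to -0.32). Gapdh was past the fold in none of 15 classes, with log2 ratios from -0.26 to 0.35.

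Within a library, CD90.1- and CD90.2-dominant CD8 cells share the preparation. Gapdh was higher in CD90.1-dominant cells by the same 0.36 in both libraries (0.30 to 0.42 in AAV-sgSCR, 0.25 to 0.47 in AAV-sgBaat), at 944 against 734 CPM and 955 against 745. Among antigen-experienced cells it was 949 against 755 CPM in AAV-sgSCR and 911 against 796 in AAV-sgBaat. Among cycling cells it was 1378 against 1336 and 1401 against 1309, and among cells not cycling 825 against 626 and 760 against 597. The difference thus varied with the cells compared. Eno1 was lower in AAV-sgSCR, 143 against 184 CPM (-0.36, interval -0.50 to -0.23), as was Ldha, 210 against 243 (-0.21, interval -0.32 to -0.09). In AAV-sgBaat their intervals spanned 0, at -0.23 and -0.08. Hk2 pointed in opposite directions: 8.80 against 13.9 CPM in AAV-sgSCR, a log2 ratio of -0.66 (-1.20 to -0.12) that became 0.15 with mixed-lineage barcodes kept, and 32.3 against 20.3 in AAV-sgBaat, a log2 ratio of 0.67 (0.02 to 1.33). It was the 1 member past the fold in each library, beside 20% of genes higher and 8.16% lower in AAV-sgSCR and 22.9% and 7.47% in AAV-sgBaat. The medians over the 10 genes were 0.05 and 0.04, beside 0.17 and 0.20 over all genes. With the denominator cut to genes outside the ribosomal, mitochondrial and member sets, these ratios shift by -0.13 and -0.16.

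Immature T cells are the cells with Dntt, Arpp21, Rag1, Rag2 or Ptcra, genes of developing T cells, and 70.7% of them in AAV-sgSCR and 79.8% in AAV-sgBaat were cycling. They numbered 99 and 1142 in those libraries and 4 in mock. Their median CD90.1 and CD90.2 tags were 3846 and 24 UMIs in AAV-sgSCR and 2874.5 and 27 in AAV-sgBaat. In the mock cells the medians were 19.5 and 1705. A contrast of these AAV cells with CD90.2-dominant cells thus also crosses the tag. Against CD90.1-dominant CD8 cells of the same library Ldha, Gapdh and Pgk1 were higher and Slc2a3 and Pfkp lower, in both libraries, while the other members differed less or in 1 library. Ldha was 578 against 210 CPM in AAV-sgSCR (1.46, interval 1.34 to 1.58) and 587 against 257 in AAV-sgBaat (1.19, interval 1.04 to 1.35). Gapdh gave 0.88 and 0.78, and Pgk1 0.87 and 0.83. With cycling cells alone on both sides, Gapdh was 1866 against 1378 CPM in AAV-sgSCR and 1690.5 against 1401 in AAV-sgBaat. Pgk1 was 248 against 183 CPM and 235 against 173 in such cells, and Ldha 628 against 289 and 611 against 399. Gapdh and Pgk1 were thus closer between the classes among cycling cells, and the part of the cell cycle was not tested. Slc2a3 was 9.20 against 32.3 CPM (-1.81, interval -2.71 to -1.03) and 12.8 against 32.3 (-1.33, interval -1.81 to -0.83), and Pfkp gave -0.98 and -0.90. Pkm was 182 against 232 CPM in AAV-sgSCR and 223 against 228 in AAV-sgBaat, and Eno1 121 against 143 and 130 against 136, none past the fold. Hk2 was past the fold higher in AAV-sgSCR, 17.1 against 8.80 CPM (0.96, interval 0.23 to 1.64), and not in AAV-sgBaat, 28.6 against 32.3 (-0.18, interval -0.62 to 0.29). Shares of all genes past the fold were wide here, 27% higher and 33.1% lower in AAV-sgSCR and 28% and 27.4% in AAV-sgBaat. Ldha and Gapdh were past the fold in the same direction against CD90.2-dominant cells, at 1.25 and 1.24 in AAV-sgSCR and 1.11 and 1.14 in AAV-sgBaat, beside 32.9% and 35.8% of genes higher.

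The members also split by the cell cycle within a class. In CD90.1-dominant CD8 cells of AAV-sgSCR, Gapdh was 825 CPM in the 1006 cells that were not cycling and 1378 in the 150 that were, a log2 ratio of 0.74, and Ldha was 189 against 289. In those of AAV-sgBaat Gapdh was 760 against 1401 CPM and Ldha 195 against 399, log2 ratios of 0.88 and 1.03. CD90.2-dominant cells gave 1.09 and 1.13 for Gapdh in the 2 libraries. Pgk1 (0.53 to 0.74) and Pkm (0.33 to 0.78) were also higher in cycling cells in all 5 sets, including the immature T cells of AAV-sgBaat. Aldoa was not, with -0.28, -0.11, -0.41, -0.08 and 0.12. The numbers of members past the fold higher in the 5 sets were 5 and 3 for CD90.1- and CD90.2-dominant cells of AAV-sgSCR (beside 12.9% and 19.1% of genes), 3 and 5 for those of AAV-sgBaat (18.4% and 24.8%), and 1 for immature T cells (14.6%). Of the CD90.1-dominant CD8 cells, 13% were cycling with AAV-sgSCR and 22.9% with AAV-sgBaat. Without them the Ldha ratio between these libraries was 0.05.

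**Figure D5:**
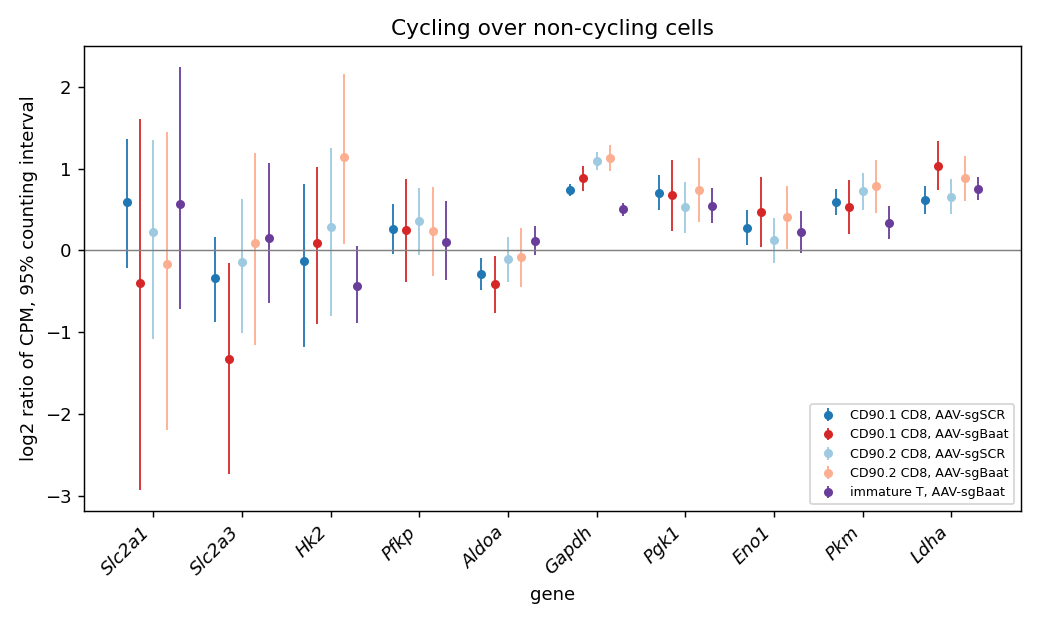
Log2 ratio of CPM, cycling over non-cycling cells, for each gene (x axis) in 5 sets of T cells (colours), with 95% exact counting intervals. Gapdh, Pgk1, Pkm and Ldha lie above 0 in all 5 sets, Gapdh from 0.50 to 1.13, while Aldoa lies near or below 0 and the sparse genes Slc2a1, Slc2a3 and Hk2 have wide intervals.

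CD90.2-dominant CD8 cells were also split by markers of antigen experience, and the members differed with them in mock and AAV-sgBaat more than in AAV-sgSCR, a contrast that was not tested. Among CD90.2-dominant CD8 cells of mock, the 297 cells with at least 5 UMIs of the Ccl5, Gzmk, Gzma, Gzmb and Nkg7 panel had 600 CPM of Gapdh against 304 in the other 253, a log2 ratio of 0.98. Slc2a3 gave 1.62 and Pfkp 1.23, and 8 of 10 members were past the fold higher, beside 26.1% of genes. In AAV-sgSCR 2 members were past it (25.8% of genes), Slc2a3 at 0.78 and Pfkp at 0.98, and in AAV-sgBaat 6 (32.5%). The medians over the members were 0.66, 0.11 and 0.71 in mock, AAV-sgSCR and AAV-sgBaat, beside 0.23, 0.18 and 0.29 over all genes. The cells outside the panel carried more Gapdh with the viruses, 550 CPM in AAV-sgSCR and 452 in AAV-sgBaat. In those cells 7 of 8 readable members were past the fold higher in AAV-sgSCR over mock, beside 15% of genes, and 1 of 7 in AAV-sgBaat over mock, beside 13.2%. They numbered 75 and 61 in the viral libraries.

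Other genes of the pathway and its surroundings were read in 7 lists. Of 17 other glycolysis enzymes, 9 were readable in CD90.1-dominant CD8 cells, where 11.6% of all genes were past the fold higher and 12.3% lower in AAV-sgBaat over AAV-sgSCR. Of the 9, 2 were past it higher, Pfkm (muscle phosphofructokinase, 1.89) and Eno3 (muscle enolase, 1.09), and 1 lower, Bpgm (bisphosphoglycerate mutase, -1.19). Of 11 carriers of glucose, pyruvate and lactate, 8 were readable, with Slc16a1, the lactate carrier MCT1, higher (1.0) and Slc2a8 and Slc2a9 lower (both -0.91). Of 16 regulators, 12 were readable, with Pfkfb4 higher (0.87) and Pdk2 (-1.09) and Hif1a (-0.61) lower. Hypoxia targets outside glycolysis gave P4ha1 higher (0.76) and Ndrg1 lower (-0.66) among 8. None of 7 pentose phosphate genes was past the fold, with a median of 0.41, and Dlat was the 1 of 13 genes of pyruvate dehydrogenase and the citric acid cycle (0.77). By contrast 6 of 7 dissociation and heat shock genes were higher, led by Hspa1b at 3.67, Hspa1a at 3.27 and Atf3 at 2.35. The list medians were 0.03, 0.03, -0.19, -0.19, 0.41, 0.17 and 1.03 in this order, beside 0.00 over all genes.

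In CD90.2-dominant CD8 cells of AAV-sgSCR over mock, 2 of 8 readable other enzymes were past the fold higher, Tpi1 (triose phosphate isomerase, 0.84) and Eno3 (0.60), and none lower, beside 13.5% of all genes higher and 10.2% lower. Among regulators Pfkfb4, a kinase that raises the activator of phosphofructokinase, gave 1.58 from 12 readable genes. The stress gene Ddit4 gave 1.83 and Ankrd37 0.77 among 8 hypoxia targets, and Kdm3a -0.76. Taldo1 (0.66) and Tkt (0.63) of the 7 pentose phosphate genes were past the fold. Ddit4 was also the largest in mature B cells, at 3.68, with Ndrg1 at 2.42 and Vegfa at 1.78, so that 4 of 10 hypoxia targets were past the fold higher and 1 lower there, beside 19.8% and 15.5% of all genes.

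Genes most like each member were sought among 11174 genes over the 44 class and library pairs, by Pearson correlation of log2(CPM + 1). These pairs share libraries and depth, so the values describe this data set. Gapdh was nearest to Pgk1, at 0.917, and then to Txn1 (thioredoxin) and Pgam1 (phosphoglycerate mutase). Pkm was nearest to Msrb1, Mcemp1 and Pgd, and Pgk1 and Pkm correlated at 0.84. Hk2 was nearest to the myeloid genes Hacd4, at 0.894, Igsf6 and Ccl6. Ldha was nearest to Mdh2, a mitochondrial malate dehydrogenase, and Slc2a3 to Khdc4. Hk2 and Slc2a3 correlated at -0.13, and Pfkp and Gapdh at -0.15.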

How the data were processed

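RNA and antibody tags were measured in 3 mRNA libraries; the separate antibody samples were not used here. What the authors deposited are unnormalized UMI counts, 1 whole number for each gene or tag in each barcode, and the file headers name Cell Ranger 6.0.1. The submitters' processing notes name mm10 as the genome build. Gene coordinates and promoters are from RefSeq (GRCm38.p6).

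Members and gene lists were chosen with earlier results of these data known, and the gates and their thresholds were set after marker UMIs and cell numbers were seen. A T cell needed 2 UMIs of Cd3d, Cd3e and Cd3g. CD8 cells had a Cd8a or Cd8b1 UMI, no Cd4 and no immature T cell UMI, and at least 100 CD90 tag UMIs, of which the higher tag named the cell. Immature T cells had 2 UMIs of their panel. Barcodes positive for more than 1 lineage by these gates were removed, apart from the class that pairs macrophage with T cell transcripts. Among monocyte genes only F13a1 and Chil3 led to removal of a T cell barcode, and none to removal of a B cell barcode. Lyz2 was in no gate, so T and B cell barcodes with monocyte RNA could stay in their classes. Scrublet at its automatic threshold marked 258 barcodes in mock but 1 each in the AAV libraries, which is not usable, and removal of the highest scores at 0.8% per 1000 barcodes (295, 430 and 403) was tried as an alternative only.

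UMIs were summed per class and library. Levels carry exact Poisson intervals and ratios exact conditional binomial intervals at 95%, both for counting error only, and 3 counts stand for a sum of 0. No replicates exist, so no test was run. Ratios were called past 1.5-fold with at least 20 UMIs over both sides. All 10 members were named, and of each other list up to 3 genes with the largest ratios among those with at least 20 UMIs. The scripts were tested on simulated counts. Alternatives concerned the cell filter, gates, tags, doublets, mixed barcodes, cycling cells, depth, denominator and averaging, and 3 were added after the data were seen: T cells without Lyz2, S100a8, S100a9 or C1q UMIs, antigen-experienced CD8 cells only, and shared barcodes left out. Python 3.11.15 was used with numpy 2.4.6, scipy 1.17.1, pandas 2.3.3, scanpy 1.11.5, anndata 0.12.19 and matplotlib 3.10.9.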

Additional observations from a re-analysis of the deposited data

Results flagged for a closer look

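Hk2 stood out because its difference between the CD8 populations pointed in opposite directions in the libraries. CD90.1-dominant over CD90.2-dominant CD8 cells gave a log2 ratio of 0.67 in AAV-sgBaat. The same ratio was -0.66 in AAV-sgSCR, and each rests on 1 library. The difference between the libraries was not tested. With mixed-lineage barcodes kept the AAV-sgSCR value was 0.15, and with the higher CD90 tag at least 5 times the lower the AAV-sgBaat value was 0.34. Lyz2 differed in the same way as Hk2 in AAV-sgBaat, at 1540 CPM in CD90.1-dominant and 507 in CD90.2-dominant cells, but not in AAV-sgSCR, at 530 and 534. In cells without a UMI of Lyz2 or C1q, Hk2 in AAV-sgBaat was 14.4 CPM (6.92 to 26.5) in CD90.1-dominant and 11.1 (6.24 to 18.4) in CD90.2-dominant cells, which is below 1.5-fold. In AAV-sgSCR it was 3.36 (1.84 to 5.63) and 8.56 (5.43 to 12.8) in such cells.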

How the results depend on the processing

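Of the 292 ratios of a member, 70 were past the fold, and 12 alternatives gave 42 to 82. Of all genes, 14.9% to 38.8% were past it either way over the classes in AAV-sgBaat over AAV-sgSCR. The shares were 23.6% to 40% in AAV-sgSCR over mock and 28.3% to 41.8% in AAV-sgBaat over mock. Between the CD8 populations they were 28.2% in AAV-sgSCR and 30.3% in AAV-sgBaat. The count of 70 thus does not set the members apart from other genes. The 42 came from thinning each cell to 1000 UMIs, which leaves fewer counts per gene, so fewer ratios could be read. Some ratios that could still be read also fell below the fold when thinned. Among them was Gapdh of AAV-sgSCR over mock in NK cells and ILC1 and in mature B cells. Hk2 in CD90.1-dominant CD8 cells, AAV-sgBaat over AAV-sgSCR, was past the fold in the 11 alternatives that held enough UMIs, from 0.75 with mixed-lineage barcodes kept to 3.04 when thinned. When thinned, 6 AAV-sgSCR and 12 AAV-sgBaat cells held a Hk2 UMI. The alternative with too few UMIs left out T cells with Lyz2, S100a8, S100a9 or C1q UMIs. It kept 139 AAV-sgSCR and 76 AAV-sgBaat cells, so the Hk2 ratio could not be read there. The median over the members ranged from -0.05 to 0.23 there, from -0.02 to 0.14 in CD90.2-dominant CD8 cells, and for CD90.1- over CD90.2-dominant cells from -0.07 to 0.12 in AAV-sgSCR and -0.12 to 0.25 in AAV-sgBaat. Of the values past the fold, 7 turned under an alternative. When thinned, Hk2 in immature T cells, AAV-sgBaat over AAV-sgSCR, was -0.24, and Pgk1 in plasmacytoid dendritic cells was -0.13 for AAV-sgSCR over mock and -0.38 for AAV-sgBaat over mock. With the mean of each cell's own CPM, Hk2 in CD4 T cells of AAV-sgSCR over mock was -0.14. With stricter cell filters, Hk2 in mature B cells of AAV-sgBaat over mock was -0.26. With mixed-lineage barcodes kept, Hk2 in CD90.1- over CD90.2-dominant cells of AAV-sgSCR was 0.15. Without T cells that held Lyz2, S100a8, S100a9 or C1q UMIs, Hk2 in CD90.2-dominant cells of AAV-sgBaat over mock was -0.39. That alternative was chosen after the data were seen and left 160 of 383 AAV-sgBaat cells and 517 of 550 mock cells. The cause of these turns was not tested. A denominator without ribosomal, mitochondrial and member genes shifted ratios by over 0.1 in NK-receptor T cells (0.16), NK cells and ILC1 (0.19) and plasmacytoid dendritic cells (0.12) of AAV-sgSCR over mock and in NK cells and ILC1 of AAV-sgBaat over mock (0.14).

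Each group is 1 library of pooled tumors, so the spread between animals is unknown and the intervals are narrower than a comparison of groups would need. Median depth differed between libraries, and Slc2a1, Slc2a3 and Hk2 rest on few UMIs in lymphocytes. Lineages were gated on marker UMIs, so cells with shallow profiles or RNA of another cell can be misplaced. No paired analysis was possible because each group has 1 sample.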

Other observations

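Genes around glycolysis were also read in immature T cells against the CD8 cells of their library. Of 13 genes of pyruvate dehydrogenase and the citric acid cycle, 10 were past 1.5-fold above the AAV-sgSCR CD90.1-dominant CD8 cells and 4 above those of AAV-sgBaat, beside 27% and 28% of all genes, so that the count in AAV-sgBaat is near the share of all genes. Among them was Fh1 (fumarate hydratase) at 1.47 and 1.01 on the log2 scale. The lactate carrier gene Slc16a1 was 44.7 against 6.16 CPM in AAV-sgSCR and 35.7 against 12.4 in AAV-sgBaat. Ldhb, the heart-type lactate dehydrogenase, gave 2.11 and 1.47, and Egln3, an oxygen sensor that marks HIF proteins for decay, was 40.7 against 0.440 CPM in AAV-sgSCR (3 UMIs in the CD8 cells, log2 ratio 6.53, interval 4.92 to 8.85) and 40.3 against 9.62 in AAV-sgBaat. Slc2a8, an intracellular glucose carrier, was lower, at -2.90 and -2.60.

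CD90.1-dominant CD8 cells also carried more Slc2a8 than CD90.2-dominant cells of the same library, 24.5 against 6.61 CPM in AAV-sgSCR and 13.1 against 2.67 in AAV-sgBaat. Ldhb was higher in them too, with log2 ratios of 1.30 and 1.42. Txnip, a brake on glucose uptake, was lower, 198 against 391 CPM and 139 against 257.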
